A study of Drosophila melanogaster with 6 samples.

Results

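The genes that build the contractile unit of muscle were followed at the level of transcripts and of splicing in larvae of *Drosophila melanogaster* that carry a temperature-sensitive allele of *ecd* (*ecdysoneless*), whose product binds a core factor of the spliceosome. The set comprised 10 genes, taken by their symbols from the 17606 genes of the deposited table of normalized counts, with all of their junctions in the deposited splicing table, 11 of 1389. The set was drawn by symbol, with no filter on a measured value. The genes, lists and tests were nevertheless chosen with earlier results of these data known. Whole larvae of the third instar, of the control strain *w1118*, were compared with larvae homozygous for *ecd1*. Both genotypes spent 10 days at 18°C and were then held at 29°C for 2 days, the temperature at which the *ecd1* product fails. Total RNA of 8 larvae made 1 sample, and there were 3 biological replicates of each genotype. No sample kept at 18°C was analysed here, so allele and strain background cannot be told apart. RNA of whole larvae also does not tell fewer muscle cells from less RNA per muscle cell.

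The sarcomere is built from interleaved thick and thin filaments. Thick filaments consist of myosin, whose heavy chain *Mhc* carries the motor and whose light chains *Mlc1* (alkali) and *Mlc2* (regulatory) brace its lever arm. Thin filaments consist of actin covered by tropomyosin (*Tm1*, *Tm2*) and the troponin complex, of which *up* codes for troponin T and *wupA* for the inhibitory troponin I. The giant proteins projectin (*bt*) and Sallimus (*sls*) are elastic proteins of the sarcomere that contribute to the stiffness of the muscle. *Mef2* codes for the MADS-box factor that activates muscle genes. Flies have a single gene for muscle myosin heavy chain and a single gene for troponin T, and much of the difference between muscle types is made by alternative splicing of such genes.

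The samples held 74581798 to 107943245 reads in *w1118* and 78438192 to 118102006 in *ecd1*. *w1118* replicate 1 stood apart: *Sgs3*, a glue protein gene of the late larval salivary gland, had a normalized count of 233485 there and 39.3 to 124 in the other samples. Markers of larval body wall muscle were abundant in all samples. Their summed normalized count over 5 genes was 1314243 to 1607801 in *w1118* and 1782177 to 2149000 in *ecd1*. Most of this sum was *Act57B* (1001065 to 1278189 and 1375208 to 1692693), which did not pass (limma adjusted P-value 0.233). Of the 5, *Prm* and *TpnC73F* rose, and both are counted again in the muscle lists below. None fell with limma or edgeR, and 1 fell with DESeq2. *Act87E* was lower in every *ecd1* sample (53233 to 64255) than in any *w1118* sample (70409 to 76061), at an unadjusted limma P-value of 0.0412. Of 4 adult flight muscle genes, *Act88F*, *fln* and *TpnC4* had a mean normalized count under 10, and *TpnC41C* fell. The sum of the 4 did not overlap between genotypes, at 55.4 to 120 in *w1118* and 25.0 to 30.2 in *ecd1*. Of all 12930 genes tested, 16.0% rose, 19.1% fell, and 3472 had every *ecd1* sample below every *w1118* sample. Of the other marker sums, those of 3 tissues did not overlap between genotypes. They were the midgut (6 genes), at 1698825 to 1740638 in *w1118* and 873327 to 1039422 in *ecd1*, where 3 of 6 fell, the testis (8 genes), at 5343 to 7762 in *w1118* and 1575 to 2648 in *ecd1*, where 7 of 8 fell, and the fat body (6 genes), at 6022123 to 8913349 in *w1118* and 381757 to 5237743 in *ecd1*, where none of 6 passed with limma (2 were lower at an unadjusted P-value below 0.05, and 0 passed with edgeR or DESeq2). The part of body composition and of replicate 1 in the levels below was not tested beyond the values without that replicate.

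Of the 10 sarcomere genes, 1 rose in *ecd1* (*bt*), none fell and 9 did not pass the test, with limma on log2 normalized counts and an adjusted P-value below 0.05 over all 12930 genes tested. Across all genes tested, 16.0% rose and 19.1% fell. At an unadjusted P-value below 0.05 there were 2 genes, *bt* and *Mhc*, both higher in *ecd1*, and none lower. DESeq2 and edgeR likewise gave none lower at an adjusted P-value below 0.05. In 3 genes, *Mhc*, *Mlc2* and *bt*, every *ecd1* sample lay above every *w1118* sample, which 26.7% of all genes tested also showed. The log2 fold change was above 0 for 9 of the 10 genes, with a median of 0.21 beside 0.0075 over all genes tested. The lowest of all 6 samples was *w1118* replicate 1 for each of the 10 genes, and without it the median was 0.07. Together the 10 genes made up 2.34%, 3.12% and 3.05% of the normalized counts in the *w1118* replicates 1 to 3, and 3.55%, 3.49% and 3.30% in the *ecd1* replicates.

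**Figure D1:**
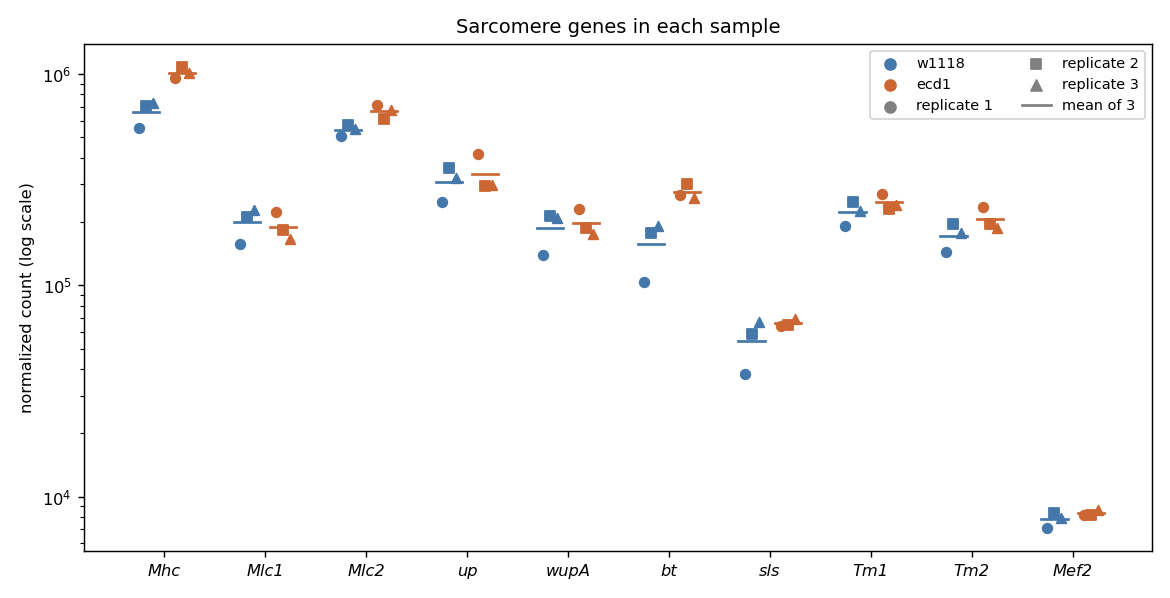
Normalized count (log axis) of the 10 sarcomere genes in each of the 3 w1118 (blue) and 3 ecd1 (orange) samples, with a line at each mean and a marker shape for each replicate number. The genotypes are apart for Mhc, Mlc2 and bt, and w1118 replicate 1 is the lowest point of every gene.

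Among the thick filament genes, *Mhc* showed the larger difference. *Mhc* (FBgn0264695, 2L:16766566-16788766 of dm6, plus strand) had normalized counts of 552810, 707760 and 726651 in *w1118* and 956229, 1077347 and 1006577 in *ecd1*. All *ecd1* samples were above all *w1118* samples, and the lowest *ecd1* value was above the highest *w1118* value by more than the SD in either genotype (95383 in *w1118*, 60845 in *ecd1*). The log2 fold change was 0.62 (SE 0.20, 95% interval 0.14 to 1.10), and its adjusted P-value of 0.0524 by limma did not pass. This call turned with the method. *Mhc* passed with edgeR (adjusted P-value 0.0129) and DESeq2 (0.000365) on the recovered reads, with TMM scaling (0.0340), without the trend (0.0245) and with a filter at a mean of 50 (0.0374), and over 9 alternatives that kept all samples the adjusted P-value ranged from 0.000365 to 0.0667. With 1 sample left out, *Mhc* passed in none of the 6 limma fits (adjusted P-value 0.0754 to 0.162), where its log2 fold change was 0.50 to 0.69.

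The regulatory light chain *Mlc2* (FBgn0002773, 3R:30171438-30174551, minus strand) had 509153, 571592 and 550760 normalized counts in *w1118* and 714473, 611899 and 677600 in *ecd1*. The genotypes did not overlap, but the log2 fold change of 0.30 (SE 0.17, 95% interval −0.11 to 0.70) did not pass with limma (adjusted P-value 0.217). It passed with DESeq2 on the recovered reads alone (0.0286). The alkali light chain *Mlc1* (FBgn0002772, 3R:27657078-27660177, minus strand) had 156647, 210550 and 227503 in *w1118* and 221071, 182177 and 165399 in *ecd1*. Here the genotypes overlapped, and the log2 fold change was −0.06 (SE 0.20, 95% interval −0.52 to 0.41, limma adjusted P-value 0.840). Its sign rested on single samples, at 0.05 without *w1118* replicate 3 and 0.04 without *ecd1* replicate 3.

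The 4 thin filament genes overlapped between genotypes and none passed the test. Troponin T, *up* (FBgn0004169, X:13593474-13602578, minus strand), had 246688, 357054 and 322742 normalized counts in *w1118* and 416152, 294417 and 296856 in *ecd1*, a log2 fold change of 0.12 (SE 0.22, 95% interval −0.40 to 0.64). Troponin I, *wupA* (FBgn0283471, X:18105568-18116922, minus strand), had 139163, 213733 and 207039 in *w1118* and 230425, 186117 and 173985 in *ecd1*, a log2 fold change of 0.09 (SE 0.21, 95% interval −0.41 to 0.60). In both troponin genes the first replicate of *w1118* was the lowest sample and the first replicate of *ecd1* the highest. Without *w1118* replicate 1 the log2 fold changes of *up* and *wupA* were −0.04 and −0.11, and without *ecd1* replicate 1 they were −0.05 and −0.03, so their direction rested on those libraries.

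The tropomyosin genes *Tm1* (FBgn0003721, 3R:15278220-15308779) and *Tm2* (FBgn0004117, 3R:15310193-15315197) lie next to each other on the plus strand. *Tm1*, which also codes for cytoskeletal tropomyosins outside muscle, had 190537, 246776 and 225580 normalized counts in *w1118* and 271502, 228194 and 240206 in *ecd1*. *Tm2* had 143845, 194998 and 176674 in *w1118* and 233776, 193830 and 186613 in *ecd1*. In both genes the highest sample was *ecd1* replicate 1, and the other *ecd1* samples lay within the range of *w1118*. The log2 fold changes were 0.16 (SE 0.16, 95% interval −0.21 to 0.54) for *Tm1* and 0.26 (SE 0.17, 95% interval −0.15 to 0.66) for *Tm2*. Reads of *Tm1* cannot be told from those of *l(3)neo43* on the opposite strand over 280 shared exonic bases, 2.86% of the gene. The mean normalized count of *l(3)neo43* over all samples was 13.8, and that of *Tm1* was 233799.

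The 2 giant proteins differed in what the test called. Projectin, *bt* (FBgn0005666, 4:724400-776474, plus strand), had 103354, 176088 and 190112 normalized counts in *w1118* and 266867, 302703 and 257639 in *ecd1*. All *ecd1* samples were above all *w1118* samples, with means of 156518 ± 46573 and 275736 ± 23806 (SD, n = 3), and *bt* rose by 0.86 on the log2 scale (SE 0.25, 95% interval 0.27 to 1.45, limma adjusted P-value 0.0358). Without *w1118* replicate 1 the log2 fold change of *bt* was 0.59 and still passed (adjusted P-value 0.0207). The call was lost when *w1118* replicate 2 was left out (0.0556), and equally for *ecd1* replicate 1 (0.0757), replicate 2 (0.118) or replicate 3 (0.0729), where the log2 fold change was between 0.59 and 1.03 over all 6 omissions. *sls* (FBgn0086906, 3L:2039681-2115611, minus strand) had 37996, 58855 and 67185 in *w1118* and 63838, 65185 and 69441 in *ecd1*. The *ecd1* samples overlapped the highest *w1118* sample, and the log2 fold change was 0.31 (SE 0.21, 95% interval −0.19 to 0.82, limma adjusted P-value 0.284), or 0.07 without *w1118* replicate 1. That *bt* passed and *sls* did not is no test of a difference between them.

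The transcription factor gene *Mef2* (FBgn0011656, 2R:9913496-9958858, minus strand) had the narrowest interval of the 10 genes. Its normalized counts were 7112, 8400 and 7928 in *w1118* and 8192, 8154 and 8606 in *ecd1*. The samples overlapped, with a log2 fold change of 0.09 (SE 0.09, 95% interval −0.13 to 0.31, limma adjusted P-value 0.464).

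**Figure D2:**
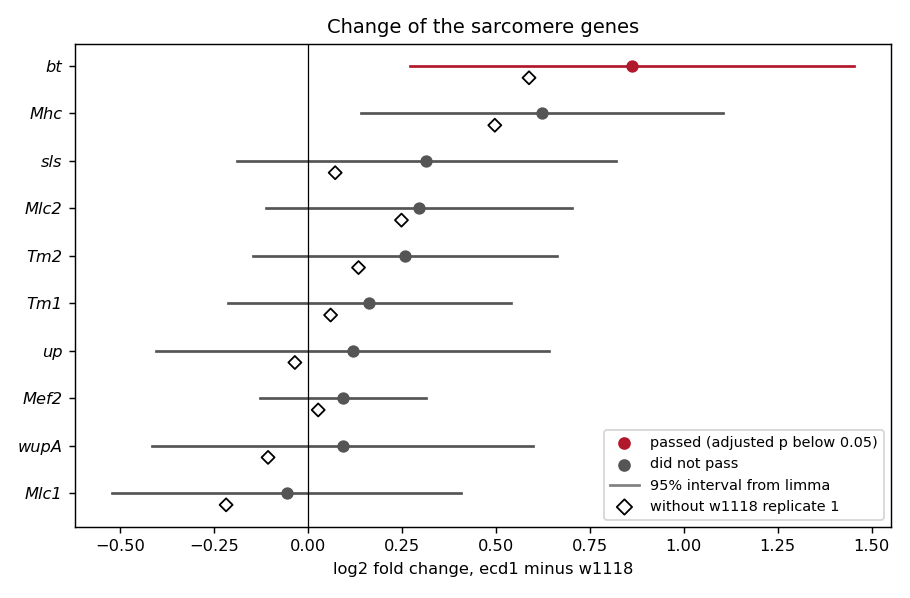
Log2 fold change (ecd1 minus w1118) of the 10 sarcomere genes with the 95% interval from limma (lines), ordered by size, and the same value without w1118 replicate 1 (open diamonds). The interval of bt (0.27 to 1.45) and that of Mhc (0.14 to 1.10) lie above 0, only bt passed the adjusted P-value, and the diamonds lie to the left of the points in all 10 genes.

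Transcript levels of different genes were compared per kb of summed exonic length. In *w1118* the mean level per kb was 237898 ± 13907 for *Mlc2*, 140193 ± 26166 for *Mlc1*, 122066 ± 22325 for *up*, 94361 ± 20858 for *wupA*, 73130 ± 10530 for *Mhc* and 65763 ± 9918 for *Tm2* (SD, n = 3). Lower levels per kb were those of *Tm1* (22538 ± 2897), the projectin gene *bt* (5586 ± 1662), *sls* (927 ± 255) and the factor *Mef2* (850 ± 70.9). From *Mlc1* to *Tm2* the SDs of neighbours overlapped, but each library was compared with itself as well, and the order within a sample was the same in 3 of 3 *w1118* samples for every neighbouring pair except *sls* and *Mef2* (2 of 3). In *ecd1* the means gave the same order except that *Mhc* (111877 ± 6717) came ahead of *wupA* (99516 ± 15020), in 2 of 3 samples. There *Mlc1* was above *up* in 1 of 3 samples, and *up* above *Mhc* in 2 of 3. The order depends on the length used. Per kb of the longest annotated transcript, a choice made after seeing the data, *up* (182092) came ahead of *Mlc1* (140193) in *w1118*, *Tm1* (72352) lay close to *Tm2* (86787), and *Mef2* (1294) came ahead of *sls* (968). By either length *Mlc2* had the highest level, and *bt*, *sls* and *Mef2* the lowest, in both genotypes.

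Ratios within a sample do not depend on how the library was scaled. Projectin was compared with the mean log2 level of the 4 thin filament genes in the same sample. The log2 ratio was −0.76, −0.48 and −0.26 in *w1118* and −0.07, 0.45 and 0.23 in *ecd1*, so every *ecd1* sample was above every *w1118* sample and the means differed by 0.71. The same ratio for *Mhc* was 1.66, 1.52 and 1.68 in *w1118* and 1.78, 2.28 and 2.20 in *ecd1*, again with no overlap and a difference of 0.46. *Mhc* also stood higher against its own light chain *Mlc2* in *ecd1* (0.42, 0.82 and 0.57) than in *w1118* (0.12, 0.31 and 0.40). In each of these 3 ratios the exact two-sided permutation test gave P = 0.1, the smallest that 3 against 3 samples allow, and 0.167 adjusted over the 5 ratios computed. The ratio of *sls* to the thin filament genes (difference 0.16, exact P = 0.5) and that of *Mlc2* to *Mlc1* (0.35, exact P = 0.2) overlapped between genotypes. Across the 10 genes, the log2 fold change and the exonic length had a Spearman correlation of 0.66, and across 12886 genes one of 0.114. The genes share the same 6 libraries, and these values are a description.

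**Figure D3:**
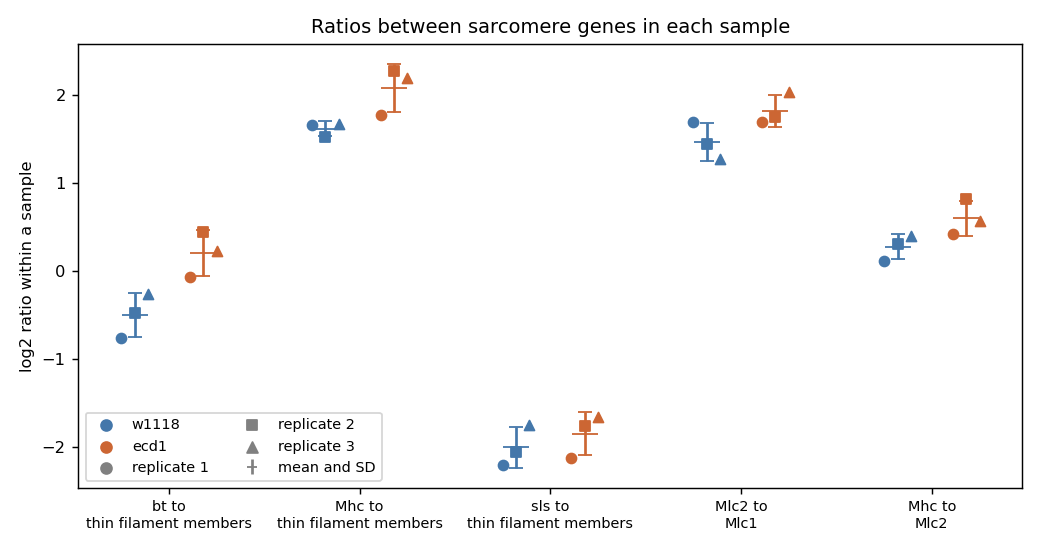
Log2 ratio of 1 sarcomere gene to another, or to the mean log2 level of the thin filament genes up, wupA, Tm1 and Tm2, within each w1118 (blue) and ecd1 (orange) sample, with mean and SD of 3. The genotypes are apart for bt and Mhc against the thin filament genes and for Mhc against Mlc2, and overlap for the other ratios.

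The splicing of the same genes was read from the deposited table of LeafCutter, which lists junctions whose deltaPSI exceeds 0.1 in size at an adjusted P-value below 0.05. PSI is the share of the reads of a cluster of overlapping introns that span 1 intron, and deltaPSI is its value in *ecd1* minus that in *w1118*. The table gives 1 deltaPSI for the 2 genotypes and 1 adjusted P-value for a cluster, with no name for the cluster and no value per sample. Junctions of a gene with the same adjusted P-value were therefore taken as 1 event, and the number of events is inferred in this way. No replicate values are given, so the spread between replicates cannot be shown and every number here is the authors' own estimate. In it were junctions of 4 of the 10 sarcomere genes (40%): *bt* with 7, *Mhc* with 2, *up* with 1 and *Mef2* with 1. Among all genes tested, 4.97% had a junction in the table, and among the genes at least as abundant as *Mef2*, the least abundant of the set, 10.6% had one. No junction was listed for *Mlc1*, *Mlc2*, *wupA*, *sls*, *Tm1* or *Tm2*. *Mlc2* has a single annotated transcript. The genes with a listed junction have 5 (*bt*) to 21 (*Mhc*) annotated transcripts, and those without have up to 18 (*Tm1*). The shares of 4.97% and 10.6% were not matched to the set in abundance or number of annotated transcripts. The floor of the second share was the mean normalized count of *Mef2*, 8066. The means of the other members ran from 60417 (*sls*) to 837896 (*Mhc*). The mean insert size differed between genotypes with no overlap, at 160.6 to 163.1 bases in *w1118* and 138.2 to 139.2 in *ecd1*. Its part in the junction estimates, in the gene levels and in their correlation with exonic length was not tested.

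All 11 junctions are annotated introns of their gene, and the positions below are the exonic bases on either side, on dm6. Near the start of *bt*, 3 consecutive coding exons of 142, 201 and 302 bases, each in 2 of the 5 annotated transcripts, were left out more often in *ecd1*. The junction over them (4:728245-730777) had a deltaPSI of 0.203, and the junctions into the first (4:728245-728673) and out of the last of them (4:729575-730777) had −0.102 and −0.101, all with an adjusted P-value of 0.000329. The 645 bases make 215 whole codons. The next event of *bt* went the other way. A 177-base exon (59 codons, in 2 of 5 transcripts) was left out less often, with −0.265 for the junction that skips it (4:736187-736819) and 0.133 and 0.132 for those that join it (4:736187-736339 and 4:736515-736819), at an adjusted P-value of 2.02e-08. In absolute size this skipping junction ranked highest among the 11, and 228 of the 1389 junctions in the table. The last event lay near the end of *bt*, at 90.6% of its length. A junction of 1 annotated transcript that skips a 57-base exon (19 codons) had a deltaPSI of 0.10 (4:771595-774017, adjusted P-value 4.24e-09), at the limit of the table.

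*Mhc* showed an exchange between mutually exclusive exons. In this gene 5 exons of 118 bases each are spliced to the same next exon. This set of mutually exclusive exons codes for the converter, the part of the myosin head that turns with the power stroke. The junction from the fourth of them (2L:16779210-16780550) had a deltaPSI of −0.132, and that from the last (2L:16779845-16780550) had 0.111, both with an adjusted P-value of 0.000288. The fourth version is used by 4 of 21 annotated transcripts and the last by 9. The table listed no junction of the other 3 versions, and none from the other alternative exons of *Mhc*.

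In *up*, troponin T, the junction that skips 2 very short coding exons, of 24 and 3 bases, rose by a deltaPSI of 0.215 (X:13596748-13599416, adjusted P-value 1.38e-05). Of 18 annotated transcripts, 7 contain the 24-base exon, 3 the 3-base exon and 7 the skipping junction. The 27 bases code for 9 amino acids in frame. The total transcript level of *up* overlapped between genotypes (log2 fold change 0.12). In *Mef2*, the junction that skips a 75-base coding exon (25 codons, in 4 of 11 transcripts) rose by a deltaPSI of 0.135 (2R:9916891-9917938). As in *up*, no junction that joins the skipped exon was listed, so its lower inclusion is not shown directly. The adjusted P-value of the *Mef2* junction, 0.0152, was the highest of the 6 events inferred, and the level of *Mef2* also overlapped between genotypes. In each of the 3 events of *bt* and in those of *up* and *Mef2*, the exonic bases passed over summed to a multiple of 3. The exchanged exons of *Mhc* are equal in length.

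**Figure D4:**
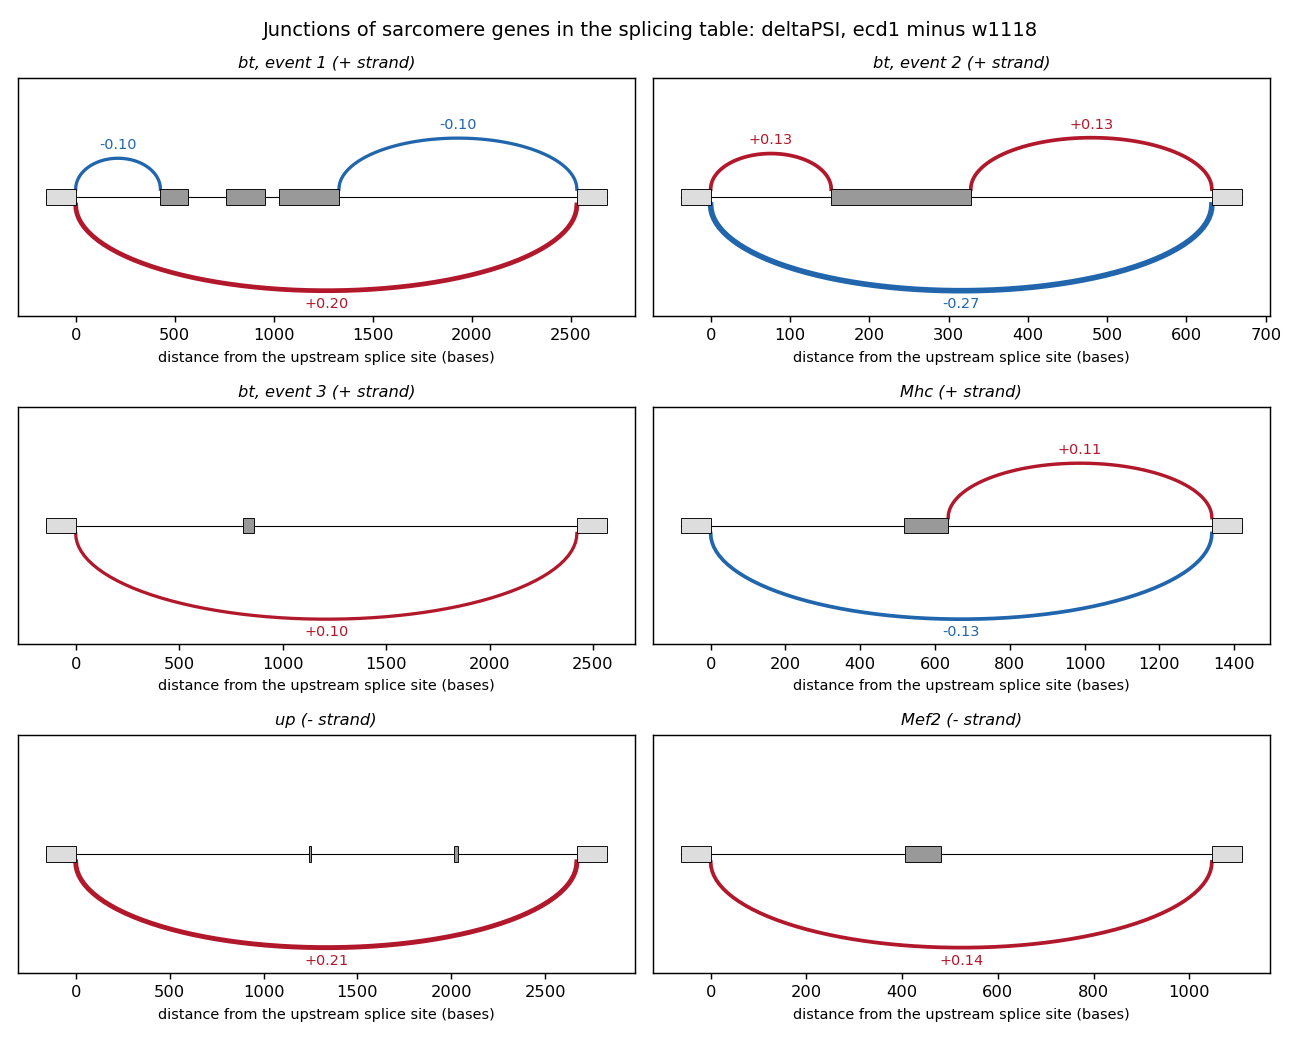
The 6 splicing events of bt, Mhc, up and Mef2, drawn along the direction of transcription with the distance in bases from the upstream splice site. Arcs below the line are junctions that pass over annotated exons (dark boxes) and arcs above it join them, red for a deltaPSI above 0 and blue for one below 0, with a line width that follows its size; the end boxes are not to scale and the 3-base exon of up is widened so that it can be seen. The 3 events of bt include a rise of 0.203 and a fall of −0.265 of the skipping junction.

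Of the 6 junctions of the set that pass over an annotated exon, 4 had a deltaPSI above 0 and 2 below 0. Over all genes of the table, 319 of 542 such junctions (58.9%) were above 0. The median absolute deltaPSI was 0.132 for the 11 junctions and 0.159 for all 1389, whose highest was 0.972. With an absolute deltaPSI above 0.2, 3 of the 11 junctions were left, 2 of *bt* and the one of *up*, and with an adjusted P-value below 0.01 there were 10, without that of *Mef2*.

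The other genes of muscle were examined in 8 lists of 85 genes, all found in the table and 80 of them tested. Of these, 22 rose (16.0% of all genes tested did), 7 fell (19.1% did) and 51 did not pass, with a median log2 fold change of 0.21. In 39 of the 80, the *ecd1* samples were all above the *w1118* samples, beside 26.7% of all genes tested. The count of genes that rose in the lists depended on which library was left out. It was 23 and 18 when *w1118* replicate 1 or *ecd1* replicate 1 was left out. It was 11 and 14 when *w1118* replicate 2 or 3 was left out, and 8 when *ecd1* replicate 2 or 3 was. The count over all genes tested moved as well. There 2064 rose with all samples, 2448, 1391 and 1298 without *w1118* replicate 1, 2 or 3, and 1640, 882 and 1338 without *ecd1* replicate 1, 2 or 3. In the lists, the count of genes that fell was 4 without *w1118* replicate 3 and 3 without *ecd1* replicate 2. Of the 19 genes named below by rule, 7 passed under every omission of 1 library (*Prm*, *Mlp60A*, *Strn-Mlck*, *SclB*, *bru1*, *mys* and *lmd*), and 2 passed under none (*exd*, adjusted P-value 0.0599 to 0.147, and *CAP*, 0.0507 to 0.147).

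Of the other thick filament genes, 2 of 3 tested rose and none fell with limma, nor at an unadjusted P-value below 0.05 or with edgeR or DESeq2. Paramyosin, *Prm*, which forms the core of insect thick filaments, had 155190 to 157526 normalized counts in *w1118* and 241620 to 252697 in *ecd1*, which is 0.67 on the log2 scale (SE 0.12, limma adjusted P-value 0.00759). Its samples lay close together within each genotype, *w1118* replicate 1 included, and its log2 fold change was 0.66 to 0.69 whichever sample was left out. The myosin chaperone *unc-45* had 2822 to 4176 in *w1118* and 5035 to 7184 in *ecd1* (log2 fold change 0.68, adjusted P-value 0.0376), and its call was lost in 4 of 6 omissions (up to 0.12). Neither gene had a junction in the splicing table.

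Of the proteins of the Z disc, M line and elastic filaments, 6 of 12 rose and 1 fell, with a median log2 fold change of 0.42. *Mlp60A*, a muscle LIM protein of the Z disc, had 48403 to 65737 normalized counts in *w1118* and 93773 to 110158 in *ecd1* (log2 fold change 0.84, SE 0.15, limma adjusted P-value 0.00774). *Strn-Mlck*, a giant relative of titin with myosin light chain kinase domains, had 7229 to 9539 and 12600 to 13328 (0.62, SE 0.12, adjusted P-value 0.00893). *Actn*, the alpha-actinin that crosslinks thin filaments at the Z disc, had 60960 to 79023 and 100875 to 104861 (0.53, adjusted P-value 0.0231), with the call lost without any 1 of the *ecd1* replicates (up to 0.0808), and 826 of its exonic bases overlap *east* on the opposite strand. Splicing differences were listed for 4 of the 12 genes, beside an unmatched 4.97% of all genes tested. Among them was a junction of *Strn-Mlck* with a deltaPSI of 0.212 (2R:15951466-15952836). This junction passes over 4 exons as annotated, of which those at 15951872-15952088 and 15951907-15952088 overlap and share an end.

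Of the other thin filament genes, 2 of 8 tested rose and 1 fell. Troponin C of larval muscle, *TpnC73F*, had 48574 to 52881 normalized counts in *w1118* and 62576 to 87221 in *ecd1* (log2 fold change 0.50, limma adjusted P-value 0.0403), and its call was lost in 5 of 6 omissions (up to 0.110). The actin gene *Act79B* had 127 to 168 and 202 to 291 (0.78, adjusted P-value 0.0311), lost in 4 of 6 (up to 0.121). *TpnC41C*, a troponin C of adult muscle, fell outside the rule for named genes because its mean was under 50, and was chosen after its values were seen. It had 107, 49.5 and 61.5 in *w1118* and 11.3, 6.11 and 1.19 in *ecd1*, which is −3.60 on the log2 scale (SE 0.68, limma adjusted P-value 0.00899). These levels are low beside those of *TpnC73F* in the same larvae.

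Of the genes of calcium handling, 3 of 9 tested rose and 1 fell. The L-type calcium channel *Ca-alpha1D* had 1373, 2881 and 3010 normalized counts in *w1118* and 4564, 5581 and 4780 in *ecd1* (log2 fold change 1.12, limma adjusted P-value 0.0285). The ryanodine receptor *RyR*, through which calcium leaves the sarcoplasmic reticulum, had 7879, 11370 and 13953 in *w1118* and 16787, 20663 and 19531 in *ecd1* (0.81, adjusted P-value 0.0254). *w1118* replicate 1 was the lowest sample of both. Their calls were lost in 3 of 6 omissions each, for *Ca-alpha1D* without any 1 *ecd1* replicate (up to 0.0995) and for *RyR* without *w1118* replicate 2 or *ecd1* replicate 2 or 3 (up to 0.0921). *SclB*, a small peptide that inhibits the calcium pump of the reticulum, had 113 to 165 and 733 to 1033 (2.71, SE 0.21, adjusted P-value 0.00147). That value is uncertain, because 88.5% of the exonic bases of *SclB* are shared with *SclA* on the same strand, which is listed at 0.

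Of 15 muscle transcription factors tested besides *Mef2*, none rose with limma (16.0% of all genes did) and 2 fell, with a median log2 fold change of −0.23. At an unadjusted P-value below 0.05, 1 of them was higher, and 1 rose with DESeq2 and 0 with edgeR. The homeobox gene *lbl* had 232 to 288 normalized counts in *w1118* and 149.7 to 174 in *ecd1* (log2 fold change −0.67, limma adjusted P-value 0.0249), with the call lost in 3 of 6 omissions (up to 0.0973), and *exd*, a partner of Hox proteins, had 7275 to 8761 and 5693 to 6737 (−0.35, adjusted P-value 0.0479). Of 6 splicing regulators of muscle, 2 fell and none rose, nor did any at an unadjusted P-value below 0.05 or with edgeR or DESeq2. *bru1* (Bruno), an RNA-binding protein that sets splice forms of flight muscle, had 2098, 2122 and 2616 in *w1118* and 1135, 1017 and 1563 in *ecd1* (−0.90, SE 0.18, adjusted P-value 0.0118). *sm* (smooth), also an RNA-binding protein, had 5631, 6989 and 9231 in *w1118* and 3002, 2570 and 4364 in *ecd1* (−1.14, SE 0.25, adjusted P-value 0.0136), with the call lost without *ecd1* replicate 2 (0.0516). In both the *ecd1* samples were all below the *w1118* samples. The summed testis markers moved with them, at 5343, 5475 and 7762 in *w1118* and 1575, 1585 and 2648 in *ecd1*. Replicate 3 was the highest of its genotype for the testis sum and for both genes, and the part of testis RNA in their fall was not tested. Of these 6 regulators, 3 (*mbl*, *Rbfox1* and *sm*) had junctions in the splicing table, beside 4.97% of all genes tested. These 3 have 19, 9 and 21 annotated transcripts, and the share was not matched for that number or for abundance.

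Of 14 genes of muscle attachment, 7 rose and none fell with limma. At an unadjusted P-value below 0.05, 1 was lower, and 1 fell with DESeq2 and 0 with edgeR. The integrin beta subunit *mys* had 16603 to 18362 normalized counts in *w1118* and 23017 to 26255 in *ecd1* (log2 fold change 0.51, SE 0.09, limma adjusted P-value 0.00857), and *Fit1*, a kindlin that activates integrins, had 7654 to 10029 and 12327 to 13632 (0.52, adjusted P-value 0.0176), with the call lost without *ecd1* replicate 2 or 3 (up to 0.0710). The adaptor *CAP* had 17259 to 24012 and 26609 to 33161 (0.51, adjusted P-value 0.0492). *CAP* also had the largest deltaPSI of the 31 junctions listed for these lists, 0.304 for a junction over 4 annotated exons (2R:10296047-10304624). Of 13 genes of myoblast fusion, 2 rose and none fell, unadjusted or with edgeR or DESeq2 included. *lmd* (lame duck), a zinc-finger factor of fusion-competent myoblasts, had 10.7, 15.3 and 21.3 in *w1118* and 168, 327 and 416 in *ecd1* (4.13, SE 0.42, adjusted P-value 0.00256), the largest log2 fold change among the 80 genes. *WASp*, an activator of actin branching, had 5238 to 5575 and 6391 to 6729 (0.28, adjusted P-value 0.0356), which did not pass in the fit with a replicate block (0.0815) and was lost in 5 of 6 omissions (up to 0.131).

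Actins and myosins outside muscle served as a comparison. Of *Act5C*, *Act42A*, *zip*, *sqh* and *Mlc-c*, none rose with limma, edgeR or DESeq2 or at an unadjusted P-value below 0.05, and *Act42A* fell, with a median log2 fold change of 0.15. Over the wider muscle lists, 14 of the 80 tested genes (17.5%) had a junction in the splicing table. This share was 4.97% of all genes tested and 10.6% of those at least as abundant as *Mef2*. Neither was matched to the 80 genes in abundance or number of annotated transcripts. With *SclA*, which was not tested, 15 of the 85 genes had a junction. The 31 junctions of these 15 genes had a median absolute deltaPSI of 0.135, and 9 of 17 that pass over an annotated exon were above 0.

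**Figure D5:**
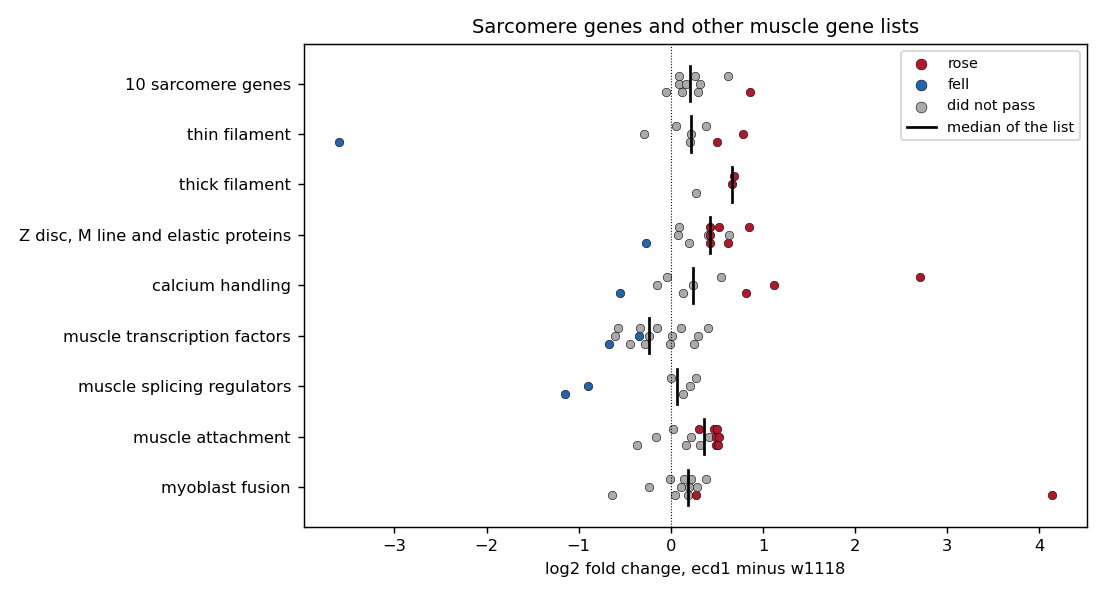
Log2 fold change (ecd1 minus w1118) of each tested gene in the set of 10 sarcomere genes and in the 8 wider muscle lists, red where it rose, blue where it fell and grey where it did not pass, with a line at the median of each list. The medians run from −0.23 for the transcription factors to 0.67 for the thick filament genes, and lmd (4.13) and TpnC41C (−3.60) lie farthest out.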

How the data were processed

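Total RNA of the 6 samples was sequenced as 100-base read pairs on an Illumina HiSeq instrument. The authors aligned the reads with TopHat2 2.0.10 to dm6, used featureCounts 1.6.4 to count them, and scaled the counts with DESeq2 size factors, so the deposited table holds a normalized count, a signal, per gene and sample. How featureCounts treated strand, multi-mapping or overlapping reads is not stated in the labels or the methods. The fraction of reads on 1 strand that the authors deposited was 0.5 to 0.503. From LeafCutter 0.2.8 the authors deposited deltaPSI, a score, with 1 adjusted p-value per cluster. It is the authors' own comparison and was used as a description because no values per sample were at hand. Deposited fold changes and p-values of genes and the GO terms were not used.

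Values were whole reads in 100% of cases within 0.05 of a read, with size factors from 0.840 to 1.31. Genotypes were compared by limma 3.58.1 in R 4.3.3, with a trend, on log2(normalized count + 1) for 12930 genes with a mean of at least 10, with genotype as the only term and Benjamini-Hochberg adjustment over all genes tested. A fold change on this scale understates that of low genes. The alternatives were pseudocounts of 0.5 and 10, other filters, TMM scaling, edgeR 4.0.16 and DESeq2 1.42.0 on recovered reads, no trend, a replicate block and leaving out each sample. Positions, exons and introns came from Ensembl release 115, in which 17527 of 17606 identifiers were found.

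Named were all 10 sarcomere genes, every junction of theirs, and of each wider list up to 3 genes that passed, had a mean of at least 50 and changed most. The genes, lists and tests were chosen with earlier results of these data known. Deviations from the genotype mean correlated by 0.209 to 0.232 between samples of the same replicate number and by −0.274 to 0.0541 between others. The pairing comes from these values, since the labels do not say what a number stands for.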

Additional observations from a re-analysis of the deposited data

How the results depend on the processing

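Of the 10 sarcomere genes, 1 rose in the main fit, 2 rose with a filter at a mean of 50, TMM scaling, edgeR or no trend, and 3 with DESeq2, and leaving out 1 sample gave 0 to 1. None fell under any alternative. With the replicate number as a block 1 rose and none fell, and of the named genes it changed the call of *WASp* alone (adjusted P-value 0.0815). The median log2 fold change was 0.20 to 0.25 with all samples and 0.07 to 0.29 with 1 left out. Leaving out 1 sample gave 8 to 23 wider muscle genes that rose and 3 to 6 that fell, and 882 to 2448 genes that rose and 1485 to 2709 that fell overall. The sign turned in *Mlc1* (−0.22 to 0.0511 over the 6 omissions), *up* (−0.0459 to 0.23) and *wupA* (−0.11 to 0.20). Of 11 junctions, 3 remained above an absolute deltaPSI of 0.2. With all samples kept, calls were also lost for *TpnC73F* and *unc-45* without the trend, *exd* in 5 and *CAP* in 3 of 9 alternatives and *WASp* in 2. With 3 samples a genotype, the 95% intervals of the genes that did not pass were wide, up to 1.10 for *Mhc*, and splicing differences under 0.1 are not listed in the table. The cause of each change was not tested.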
